A study of Mus musculus with 12 samples.

Results

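Of the 34745 genes in the deposited table, 9 were taken by name as genes of osteoclast differentiation and function: Tnfrsf11a, Oscar, Calcr, Nfatc1, Dcstamp, Ocstamp, Atp6v0d2, Acp5 and Ctsk. In femoral bone marrow of mice given cyclophosphamide these genes did not move in one direction. Acp5, which encodes tartrate-resistant acid phosphatase, was 4.17-fold lower than in normal marrow. Atp6v0d2, a subunit of the proton pump, was 3.22-fold higher, and Tnfrsf11a, the receptor for the osteoclast-forming cytokine RANKL, was 1.88-fold higher. The call of Tnfrsf11a (edgeR adjusted p = 0.0458) was lost without any 1 normal library, without model 1 or without model 2. None of the 5 genes that could be tested was called different between model and either of the drugs given with cyclophosphamide. Over all genes tested, 35.1% were called between model and normal, 0% between QJSB and model and 23.1% between leucogen and model. The other 4 genes, Oscar, Calcr, Dcstamp and Ocstamp, had at most 8 reads in any library.

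RNA of total femoral marrow cells was sequenced from 12 male mice of the outbred ICR strain, 3 per group. Normal mice were given saline. Model mice were injected on days 5 to 7 with cyclophosphamide at 80 mg/kg per day, a DNA-damaging chemotherapy drug that depletes the marrow. QJSB mice had this injection and were dosed for 1 week at 3 g/kg per day with Qi Jing Sheng Bai granule, a herbal medicine. Leucogen mice had the injection and, for 1 week, leucogen at 20 mg/kg per day, which is prescribed to raise leucocyte counts. All 3 groups other than normal were therefore given cyclophosphamide, and no group received QJSB or leucogen alone. Each library is 1 mouse, and the marrow was not sorted, so the values are averages over all of its cells. In such bulk RNA, fewer cells of a type and less RNA per cell cannot be told apart.

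The deposited table heads its columns Model, Blank, Positive and Stilbene. Only the first is a name of a group in the labels. Blank was read as normal, Positive as leucogen and Stilbene as QJSB, by what these words mean and by elimination, and the group names rest on that reading. Library totals ran from 11172547 to 18545198 reads, and the leucogen libraries were the shallowest, at 11172547 to 14766064 reads. The marrow carried its own cell markers: the summed level of 10 late neutrophil genes was 18833 to 22464 CPM, which are counts scaled by TMM to libraries of equal size, in normal. Between model and normal, all 9 mature B cell markers and all 8 erythroid markers were lower, as were 4 of 5 eosinophil, 3 of 4 basophil and mast cell, 3 of 10 late neutrophil and 2 of 8 stromal markers. Of 7 T and NK cell markers 6 were lower and 1 was higher, and 0 of 6 megakaryocyte markers were called different. Of the 8 osteoblast lineage markers, 6 were tested by edgeR between model and normal. Ibsp (log2 fold change -1.36) and Alpl (-1.61) were lower, and none was higher. Uncalled were Bglap (-1.46), Runx2 (-0.08), Col1a2 (0.38) and Col1a1 (0.83). Model 1 and QJSB 1 stood apart in the summed level of the 8 genes, at 656 and 836 CPM. The other 10 libraries were at 126 to 336 CPM. A high sum does not show that the list rose as a whole.

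Osteoclasts are multinucleated cells that resorb bone and arise by fusion of precursors of the monocyte and macrophage lineage. RANKL binds its receptor RANK on the precursor, the signal joins with that of immunoglobulin-like receptors such as OSCAR through adaptors with activation motifs, and both raise the transcription factor NFATc1. NFATc1 with AP-1, PU.1 and MITF then turns on genes for fusion, for acid secretion and for the enzymes that digest the bone matrix. Several of these genes are not particular to osteoclasts: tartrate-resistant acid phosphatase and the d2 subunit of the pump are also made by macrophages, NFATc1 by lymphocytes, RANK by dendritic cells, and cathepsin K by stromal cells.

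Promoter sequence is shown for the gene with the largest fall, Acp5, and for the receptor at the head of the pathway, Tnfrsf11a, since the known factors of the pathway act on such regions. RefSeq promoters of build GRCm38.p6 were found for 5 of the 9 genes, and 250 bases before each start site were searched on both strands for 4 motifs, with trailing exon bases left out of the sequences printed. The motifs were GGAAA, the core read by NFAT factors, TGANTCA of AP-1, GAGGAAGT of PU.1 and CATGTG, the E-box read by MITF. The NFAT core was present in 55.6% of 32851 promoters of the same length, the AP-1 motif in 6.75%, the PU.1 motif in 2.44% and the E-box in 12.3%. Matches of different motifs may overlap. Capitals mark a match on either strand, so TTTCC is the NFAT core and CACATG the E-box on the other strand.
Acp5, chr9:22135747-22135996, minus strand: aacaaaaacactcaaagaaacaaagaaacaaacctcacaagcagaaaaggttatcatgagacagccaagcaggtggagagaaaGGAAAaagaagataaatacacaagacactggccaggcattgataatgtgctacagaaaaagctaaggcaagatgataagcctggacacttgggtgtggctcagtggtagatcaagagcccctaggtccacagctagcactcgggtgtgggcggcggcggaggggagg
Acp5, chr9:22131866-22132115, minus strand: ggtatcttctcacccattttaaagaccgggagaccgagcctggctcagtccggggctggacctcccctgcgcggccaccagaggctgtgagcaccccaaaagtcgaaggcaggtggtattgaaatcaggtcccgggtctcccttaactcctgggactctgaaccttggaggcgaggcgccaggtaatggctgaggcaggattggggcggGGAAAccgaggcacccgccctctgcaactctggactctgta
Acp5, chr9:22130609-22130848, minus strand: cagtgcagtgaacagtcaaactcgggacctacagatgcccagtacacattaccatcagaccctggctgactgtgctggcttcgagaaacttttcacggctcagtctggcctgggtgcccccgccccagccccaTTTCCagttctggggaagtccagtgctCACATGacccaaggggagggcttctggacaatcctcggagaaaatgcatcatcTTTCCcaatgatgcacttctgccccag
Tnfrsf11a, chr1:105780473-105780717, plus strand: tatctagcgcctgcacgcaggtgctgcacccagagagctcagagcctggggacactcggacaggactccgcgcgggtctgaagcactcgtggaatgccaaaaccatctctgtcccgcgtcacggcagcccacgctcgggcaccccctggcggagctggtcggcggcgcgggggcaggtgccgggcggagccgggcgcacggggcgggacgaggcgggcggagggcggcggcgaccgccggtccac
The 3 start sites of Acp5 had 1, 1 and 2 NFAT cores, and the last also had 1 E-box. The single Tnfrsf11a window held none of the 4 motifs. Among the genes whose windows are not printed, Oscar had 3 NFAT cores and 1 E-box, 1 of the 2 Calcr windows had 1 NFAT core, and Ctsk had none of them. These matches describe the letters of the windows only.

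Among the receptors, Tnfrsf11a (chromosome 1, 105780718 to 105847981, mm10, coordinates of the table) was the one with enough reads to test. Its normalised levels were 3.48, 4.73 and 4.69 CPM in normal, 7.50, 11.6 and 5.25 CPM in model, 7.78, 8.10 and 6.51 CPM in QJSB and 8.57, 6.52 and 5.76 CPM in leucogen. All 9 libraries given cyclophosphamide lay above the 3 normal libraries, and the 3 treated groups overlapped one another. From low to high the mean levels were 4.30 ± 0.71 CPM in normal, 6.95 ± 1.46 in leucogen, 7.47 ± 0.84 in QJSB and 8.10 ± 3.19 in model (SD, n = 3), and no 2 neighbours among the last 3 differed by more than their spread. Compared with normal, the level in model was higher by 0.91 on the log2 scale (SE 0.32, quasi-likelihood test of edgeR, Benjamini-Hochberg adjusted p = 0.0458). This call was lost without normal 1 (0.78, adjusted p = 0.146), normal 2 (0.99, 0.0931), normal 3 (0.99, 0.0904), model 1 (0.97, 0.0589) or model 2 (0.59, 0.120).

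Oscar, the collagen-binding receptor that signals through an Fc receptor chain, and Calcr, the calcitonin receptor that arrests resorption, were at the edge of detection. Oscar had 1, 0 and 6 reads in normal, 6, 5 and 7 in model, 2, 4 and 0 in QJSB and 1, 0 and 0 in leucogen. The 3 model libraries were thus at 5 reads or more, while the 3 leucogen libraries were at 1 read or none. Calcr had 2, 1 and 7 reads in normal, 8, 1 and 7 in model, 1, 0 and 0 in QJSB and 2, 0 and 1 in leucogen, with each group except QJSB and leucogen holding a library of 7 or more. A count of 0 still allows 3 reads, which is 0.162 to 0.269 CPM of the library total, and this limit covers counting error only.

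**Figure D1:**
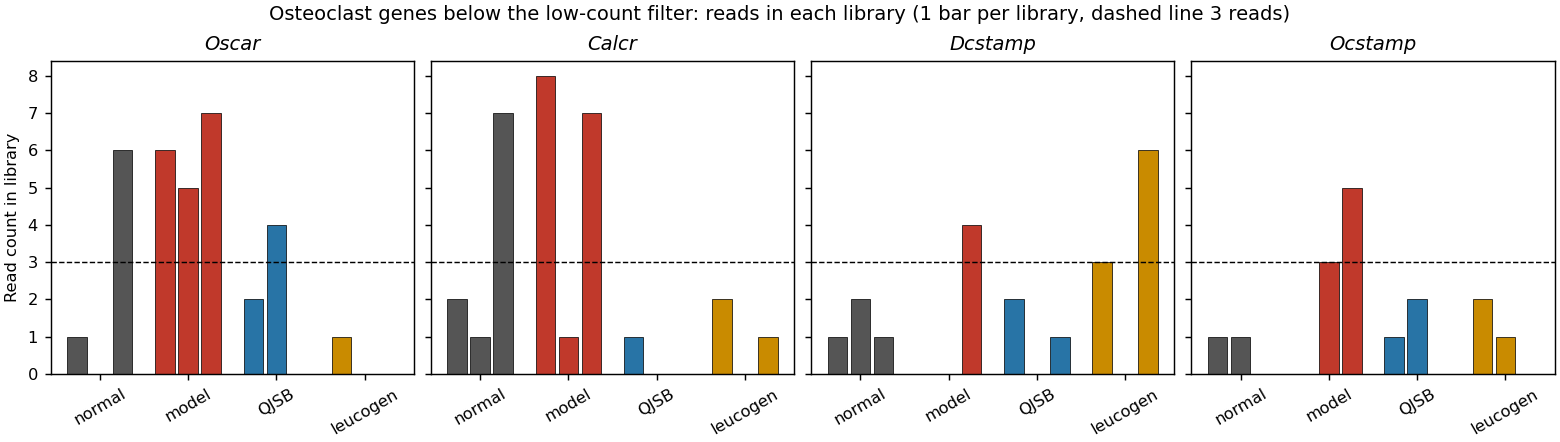
Reads of Oscar, Calcr, Dcstamp and Ocstamp in each of the 12 libraries, 1 bar per library in the order of replicates 1 to 3 within normal, model, QJSB and leucogen, with a dashed line at 3 reads. No library has more than 8 reads of any of the 4 genes, and Oscar is at 5 to 7 reads in the model libraries and at 0 or 1 in the leucogen libraries.

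Nfatc1, the transcription factor that drives osteoclast differentiation, was the best covered of the 9 genes, with 823 to 2306 reads per library (chromosome 18, 80606205 to 80713071). Its level was 83.1, 82.5 and 89.4 CPM in normal, 68.8, 68.0 and 82.9 CPM in model, 80.9, 133 and 99.4 CPM in QJSB and 82.0, 86.8 and 79.0 CPM in leucogen. Model 1 and model 2 were the lowest of all 12, QJSB 2 was the highest, and every pair of groups overlapped. The means were 73.2 ± 8.38 CPM in model, 82.6 ± 3.96 in leucogen, 85.0 ± 3.82 in normal and 105 ± 26.6 in QJSB (SD, n = 3), and no pair of groups was called different. Between model and normal the difference was -0.21 (95% interval -0.50 to 0.08, edgeR adjusted p = 0.219).

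Of the genes for fusion, Dcstamp and Ocstamp, transmembrane proteins needed for precursors to merge, were close to absent from the libraries. Dcstamp had 1, 2 and 1 reads in normal, 0, 0 and 4 in model, 2, 0 and 1 in QJSB and 3, 0 and 6 in leucogen. Ocstamp had 1, 1 and 0 reads in normal, 0, 3 and 5 in model, 1, 2 and 0 in QJSB and 2, 1 and 0 in leucogen. No group was separate from another for either gene. Together with Oscar and Calcr these 4 genes failed the filter on low counts, and without the filter edgeR called 0 of their 24 tests over the 6 comparisons, with 3 at an unadjusted p under 0.05, while DESeq2 called 0 of 24 with 2 at an unadjusted p under 0.05. The smallest adjusted p of edgeR was 0.0655, for Oscar between leucogen and model. Whether the reads of the other 5 genes came from osteoclasts or from other marrow cells was not tested.

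Atp6v0d2 (chromosome 4, 19876841 to 19922605) encodes the d2 subunit of the membrane part of the V-ATPase, the pump that acidifies the space beneath the osteoclast, and it is also needed for fusion. Its level was 1.52, 2.88 and 3.51 CPM in normal, 7.96, 10.4 and 7.10 CPM in model, 5.53, 4.05 and 7.85 CPM in QJSB and 7.07, 10.1 and 16.6 CPM in leucogen. Every library given cyclophosphamide lay above every normal library, and leucogen 3 was the highest. The order of the means was 2.64 ± 1.02 CPM in normal, 5.81 ± 1.92 in QJSB, 8.49 ± 1.72 in model and 11.2 ± 4.87 in leucogen (SD, n = 3), and the libraries of QJSB overlapped those of model, as did those of leucogen, with neither pair called different. Compared with normal, model was higher by 1.68 on the log2 scale (SE 0.33, 95% interval 0.94 to 2.43, edgeR adjusted p = 0.00384). The call held without each of the 6 libraries in turn, at 1.41 to 1.95.

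The d1 subunit, encoded by Atp6v0d1, is the form found in most cells, so the share of d2 was computed on the FPKM scale, which takes transcript length into account. Atp6v0d2 held 3.29% ± 1.32 of the summed FPKM of both genes in normal, 8.04% ± 2.78 in model, 4.38% ± 1.63 in QJSB and 12.1% ± 4.97 in leucogen (SD, n = 3). The 3 normal libraries, at 1.79% to 4.27%, lay below the model libraries at 5.60% to 11.1% and below the leucogen libraries at 9.01% to 17.9%, but overlapped with QJSB at 2.62% to 5.85%. Atp6v0d1 itself averaged 28.0 ± 1.84 FPKM in normal, 39.2 ± 6.22 in model, 47.0 ± 3.52 in QJSB and 28.2 ± 3.91 in leucogen (SD, n = 3). The share therefore moved with both genes, and Atp6v0d2 alone was higher in every QJSB library than in every normal library. Atp6v0d1 was not called different between model and normal (0.37, SE 0.15, edgeR adjusted p = 0.0861), although its 3 model libraries lay above the 3 normal libraries.

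Acp5 (chromosome 9, 22126731 to 22135746) encodes the acid phosphatase by which osteoclasts are stained. The reads were 654, 764 and 890 in normal, 321, 104 and 217 in model, 188, 175 and 478 in QJSB and 140, 146 and 81 in leucogen. On the CPM scale this was 47.4, 52.4 and 61.3 in normal, 18.5, 7.37 and 12.5 in model, 10.1, 10.1 and 29.1 in QJSB and 11.1, 10.6 and 7.77 in leucogen. All normal libraries lay well above all others, and QJSB 3 was the highest of those given cyclophosphamide. The means were 9.82 ± 1.80 CPM in leucogen, 12.8 ± 5.58 in model, 16.4 ± 11 in QJSB and 53.7 ± 7.08 in normal (SD, n = 3), and the first 3 did not differ by more than their spread.

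Compared with normal, the level of Acp5 in model fell by 2.06 on the log2 scale (SE 0.30, 95% interval -2.75 to -1.37, edgeR adjusted p = 0.00117), and it fell by 1.77 to 2.41 with each library left out in turn. An antisense gene, 6530413G14Rik, overlaps Acp5 in the GENCODE M21 annotation and is not among the genes of the table. The libraries were strand-specific, but whether the counting used the strand is not given in the sources used here. Of 13 macrophage markers 7 were lower in model, beside 19% of all genes tested. Gpnmb was higher, at 6.37 (edgeR adjusted p = 1.5e-05), beside 16.1% of all genes. Uncalled were Mertk (0.42), Cd68 (0.53), Adgre1 (-0.17), Vcam1 (-0.58) and Siglec1 (-0.77). The summed level of the 13 markers was 574 to 662 CPM in normal against 299 to 454 in model, 348 to 438 in QJSB and 276 to 312 in leucogen. None of these 13 genes was at 0 throughout a group. Their part in the fall of Acp5 was not tested.

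Ctsk (chromosome 3, 95499256 to 95509362) encodes cathepsin K, the protease that cuts bone collagen. Its reads were 59, 49 and 80 in normal, 78, 18 and 103 in model, 54, 16 and 20 in QJSB and 53, 13 and 7 in leucogen. On the CPM scale the libraries were at 4.27, 3.36 and 5.51 in normal, 4.50, 1.28 and 5.94 in model, 2.90, 0.93 and 1.22 in QJSB and 4.21, 0.94 and 0.67 in leucogen. In each of the 3 treated groups at least 1 library was far from the others: model 2 was low, and QJSB 1 and leucogen 1 were high. The means were 1.68 ± 1.06 CPM in QJSB, 1.94 ± 1.97 in leucogen, 3.91 ± 2.39 in model and 4.38 ± 1.08 in normal (SD, n = 3), and no neighbours in this order differed by more than their spread.

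Between model and normal, Ctsk was not called different (-0.15, 95% interval -1.26 to 0.96, edgeR adjusted p = 0.823). The difference turned positive without model 2 (0.27) or normal 3 (0.06). Osteoblast lineage markers summed to 656 CPM in model 1 and 836 in QJSB 1, and of the libraries given cyclophosphamide model 1 had 4.50 CPM and QJSB 1 had 2.90 CPM of Ctsk. Model 3 and leucogen 1, with marker sums of 188 and 140 CPM, had 5.94 and 4.21 CPM of Ctsk. The remaining libraries given cyclophosphamide had sums of 126 to 226 CPM and 0.67 to 1.28 CPM of Ctsk. Of the 6 osteoblast lineage markers tested between model and normal, 2 were lower and 0 were higher. The part of these markers in the level of Ctsk was not tested.

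**Figure D2:**
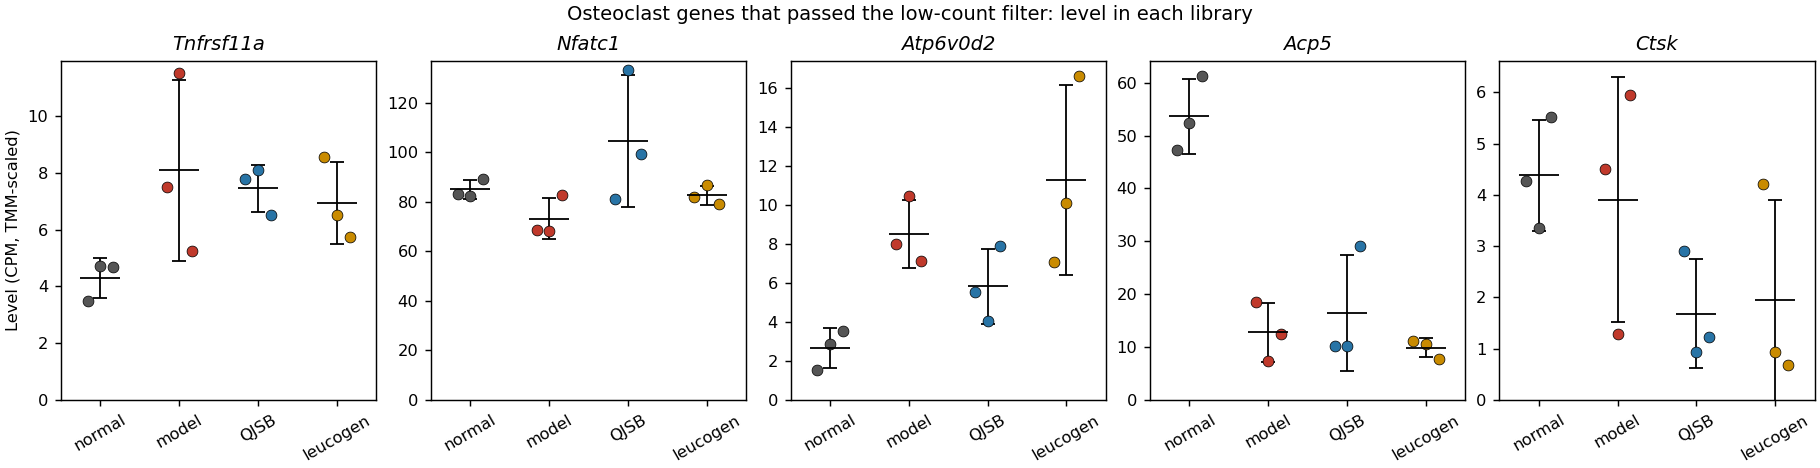
Level in CPM, scaled by TMM, of the 5 genes that passed the low-count filter in each of the 12 libraries, with a point per mouse, a horizontal line at the mean of the group and bars of 1 SD (n = 3). The Acp5 points of normal sit at 47.4 to 61.3 CPM, above all others, while those of Tnfrsf11a and Atp6v0d2 sit below all others, and the lower bar of Ctsk in leucogen ends at the axis.

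Compared per length on the FPKM scale, Acp5 was the most abundant of the 9 genes in normal marrow, with 32.7 ± 4.57 FPKM against 10.5 ± 0.55 for Nfatc1 (SD, n = 3). Ctsk followed at 2.85 ± 0.72, Atp6v0d2 at 0.95 ± 0.37 and Tnfrsf11a at 0.67 ± 0.12. In model Acp5 was at 8.58 ± 4.08 FPKM and Nfatc1 at 9.84 ± 0.80, and Atp6v0d2, at 3.32 ± 0.69, was above Ctsk, at 2.76 ± 1.65 (SD, n = 3). The highest group mean among the other 4 genes was 0.171 FPKM, for Oscar in model. The order at the top and the order of Ctsk and Atp6v0d2 thus differed between the means of the 2 groups, although the spread of Acp5 and Ctsk in model covers these reversals.

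The effect of cyclophosphamide on the 9 genes was thus called for 3 of the 5 that were tested, with 2 higher and 1 lower in model. Over all genes tested in this comparison 35.1% were called, with 16.1% higher and 19% lower, and a share of the members is to be read against that background. The same 3 genes had libraries of model and normal that did not overlap, which held for 55.5% of all genes tested. The median log2 fold change of the 5 genes was -0.15, beside 0.02 over all genes tested.

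**Figure D3:**
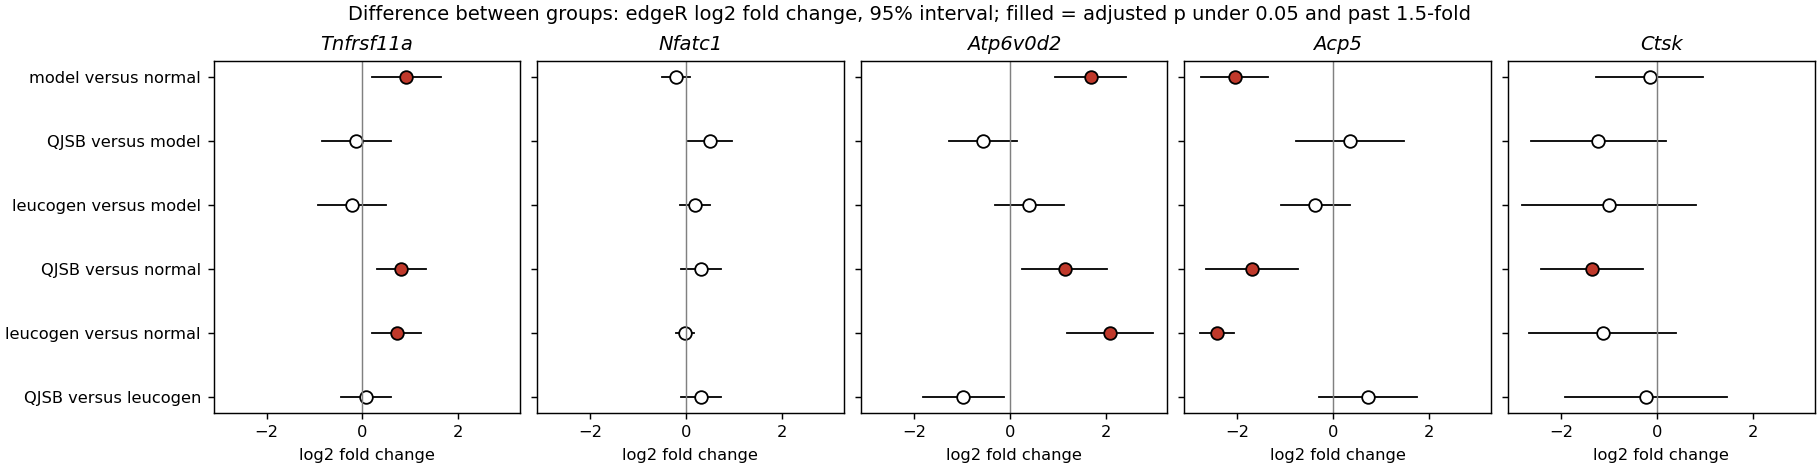
Log2 fold change of the 5 testable genes in each of the 6 comparisons of groups, from edgeR, with lines for the 95% interval and filled points where the adjusted p was under 0.05 and the change past 1.5-fold. Filled points appear only against normal: Tnfrsf11a and Atp6v0d2 to the right of 0, Acp5 to the left in all 3 treated groups, and Ctsk to the left in QJSB alone.

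To ask whether QJSB altered these genes after cyclophosphamide, QJSB was compared with model. Acp5 differed by 0.34 (95% interval -0.78 to 1.47, edgeR adjusted p = 0.880), Atp6v0d2 by -0.56 (-1.27 to 0.14, 0.767), Ctsk by -1.23 (-2.63 to 0.18, 0.767) and Tnfrsf11a by -0.13 (-0.85 to 0.59, 0.932). Nfatc1 differed by 0.50 (0.03 to 0.96, unadjusted p = 0.0395, edgeR adjusted p = 0.767), which is below 1.5-fold. Calcr, with 16 reads in model and 1 in QJSB over 3 libraries each, had an unadjusted p of 0.0167 without the filter (edgeR adjusted p = 0.819). None of the 5 was called, where 0% of all genes tested were called by edgeR, 723 of 14486 genes had an unadjusted p under 0.05 and DESeq2 called 8 genes, or 0.0368%. None of the 5 had QJSB and model libraries apart, against 9.8% of all genes tested. The untested Oscar had 5 to 7 reads in the model libraries and 0 to 4 in the QJSB libraries. The intervals still allow changes of more than 1.5-fold in either direction for Acp5 and Tnfrsf11a, and the direction of Acp5 rested on QJSB 3, without which the difference was -0.36, while that of Tnfrsf11a turned to 0.21 without model 2.

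Leucogen, the comparison drug, was set against model in the same way. Acp5 differed by -0.38 (95% interval -1.10 to 0.34, edgeR adjusted p = 0.404), Atp6v0d2 by 0.41 (-0.31 to 1.13, 0.362), Ctsk by -0.996 (-2.81 to 0.82, 0.372), Nfatc1 by 0.18 (-0.13 to 0.49, 0.351) and Tnfrsf11a by -0.21 (-0.92 to 0.50, 0.645). None of the 5 was called, against 23.1% of all genes tested, and none of the 5 had leucogen and model libraries apart, against 46% of all genes. The untested Oscar had 5 to 7 reads in the model libraries and 0 or 1 in the leucogen libraries. Oscar was the one member called by any alternative, by limma on log2(FPKM + 0.1) without a filter (-1.30, adjusted p = 0.0166), from 18 reads in model and 1 read in leucogen over 3 libraries each.

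QJSB and leucogen were then each compared with normal, to see which genes differed from their level in untreated marrow. These comparisons share the normal libraries with each other and with that of model. In QJSB, Acp5 fell by 1.70 on the log2 scale (SE 0.41, edgeR adjusted p = 0.0125) and Ctsk fell by 1.35 (SE 0.45, 0.0430), while Atp6v0d2 was higher by 1.15 (SE 0.38, 0.0405) and Tnfrsf11a by 0.81 (SE 0.22, 0.0194). The 4 called genes, of 5 tested, stood beside 37.9% of all genes tested, of which 18% were higher and 19.9% lower, and the same 4 had libraries that did not overlap, as did 58.1% of all genes. Nfatc1 was not called in QJSB (0.31, 95% interval -0.10 to 0.73, adjusted p = 0.190), but was at 0.46 (adjusted p = 0.0175) without QJSB 1, a change below 1.5-fold.

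Most of these calls depended on single libraries. Without QJSB 1, Acp5 fell by 1.45 (adjusted p = 0.0634), and it was called without each of the other 5 libraries. Ctsk was called without QJSB 1 (-2.02, adjusted p = 0.00156) and lost its call without normal 1 (-1.38, 0.0986), normal 2 (-1.52, 0.0690), normal 3 (-1.16, 0.132), QJSB 2 (-1.06, 0.101) or QJSB 3 (-1.17, 0.121). Atp6v0d2 lost it without normal 1 (0.87, 0.115), normal 2 (1.21, 0.0971) or QJSB 3 (0.88, 0.125), and Tnfrsf11a without normal 1 (0.67, 0.0811), normal 2 (0.88, 0.0528) or QJSB 2 (0.75, 0.0517), all by edgeR with adjusted p.

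In leucogen, Acp5 fell by 2.42 (SE 0.16, edgeR adjusted p = 1.4e-06), Atp6v0d2 was higher by 2.10 (SE 0.39, 0.00231) and Tnfrsf11a by 0.72 (SE 0.23, 0.0245). The calls of Acp5 and Atp6v0d2 held without each of the 6 libraries, at -2.52 to -2.30 and 1.70 to 2.35. Tnfrsf11a was no longer called without normal 1 (0.58, adjusted p = 0.0880) or leucogen 1 (0.53, 0.0930). Ctsk was not called (-1.13, 95% interval -2.66 to 0.40, adjusted p = 0.185) unless leucogen 1 was left out (-2.39, adjusted p = 7.4e-04), and Nfatc1 was at -0.02 (-0.21 to 0.17, adjusted p = 0.867). The 3 calls of 5 stood beside 37.7% of all genes tested, with 17.8% higher and 19.8% lower, and the 3 genes had libraries that did not overlap, as did 61.8% of all genes.

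The difference between the drugs was tested directly by comparing QJSB with leucogen, both after cyclophosphamide. Atp6v0d2 was the member with the largest difference, at -0.97 (SE 0.37, 95% interval -1.80 to -0.13), which edgeR did not call (unadjusted p = 0.0284, adjusted p = 0.0793). QJSB 3, at 7.85 CPM, lay above leucogen 1, at 7.07 CPM, so the groups overlapped. With the replicate number as a block, Atp6v0d2 was called (-0.94, edgeR adjusted p = 0.0289), as were 25.8% of all genes. After removal of the group means, libraries of these 2 groups with the same number correlated at 0.174, 0.157 and 0.110, and the pairing comes from these correlations alone. DESeq2 also called it (-0.98, adjusted p = 0.0375), beside 17.6% of all genes, as did an unadjusted p under 0.05 with a 1.5-fold change, beside 30.6%.

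No other member was called: Acp5 was at 0.73 (95% interval -0.30 to 1.75, edgeR adjusted p = 0.250), Nfatc1 at 0.32 (-0.10 to 0.73, 0.217), Tnfrsf11a at 0.08 (-0.44 to 0.60, 0.816) and Ctsk at -0.23 (-1.92 to 1.46, 0.832). The value of Acp5 was 0.01 without QJSB 3, and Nfatc1 was at 0.47 (adjusted p = 0.0296) without QJSB 1. Of the 5 members none was called, against 24.6% of all genes tested, and none had libraries apart, against 48.8% of all genes.

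A further 65 genes of the pathway were listed by role, and 60 of them were tested between model and normal. In model 11 were higher and 16 were lower, which is beside 35.1% called over all genes, and the median log2 fold change of the list was -0.03 against 0.02. Of 8 receptors and ligands, 6 were tested, and 3 of these were higher and none lower. Csf1r, the receptor for the colony-stimulating factor that keeps precursors alive, was higher by 0.81 (edgeR adjusted p = 0.00273), and Il1r1, an interleukin-1 receptor, by 0.84 (0.0115). Of the monocyte markers 4 of 6 were likewise higher in model. The uncalled ones were Ms4a4c at 1.56 (edgeR adjusted p = 0.101) and Cx3cr1, which went the other way, at -1.16 (0.0511). The sum of these markers was 1707 to 2815 CPM in model against 728 to 854 in normal, 1247 to 1800 in QJSB and 1280 to 1671 in leucogen, with no marker at 0 throughout a group. Their part in these changes, and in those of Tnfrsf11a and Atp6v0d2, was not tested.

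Of the costimulatory receptors and adaptors, 1 of 3 tested was higher and 1 was lower: Trem2, a receptor of the osteoclast and macrophage surface, at 2.43 (edgeR adjusted p = 1.9e-04), and Tyrobp, the adaptor DAP12 through which it signals, at -0.85 (0.0157). Trem2 had 1.88 to 3.38 CPM in normal and 12.3 to 16.4 in model, while Tyrobp had 236 to 308 CPM in normal and 104 to 183 in model. A receptor and its own adaptor thus differed in direction. Among 14 signaling genes 1 was higher and 2 were lower, with Gab2, a scaffold that binds RANK, at 1.28 (4.0e-04) and Blnk, an adaptor of B cells and osteoclasts, at -4.10 (0.00350). Blnk was at 124 to 133 CPM in normal and 2.08 to 14.8 CPM in model. The 9 mature B cell markers summed to 1338 to 1439 CPM in normal and 12.9 to 57.1 CPM in model, and their part in the fall of Blnk was not tested.

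Of the 12 transcription factors 2 were higher and 4 lower, with Spi1, which encodes PU.1, at 0.89 (edgeR adjusted p = 0.00646) and Jun, a subunit of AP-1, at -1.43 (0.0270). Of 7 inhibitors tested, 1 was higher, Socs3, a suppressor of cytokine signaling, at 1.48 (0.0145), and 3 were lower, the lowest being Tnfaip3, the A20 brake on NF-kB, at -1.57 (5.9e-04). For fusion and adhesion, 3 of 7 were lower and none was higher, from Adam8, a metalloprotease, at -2.40 (0.00358) to Cd9, a tetraspanin, at -0.76 (0.00328). The calls of Jun, Socs3, Il1r1 and Tyrobp were each lost without normal 1 and without normal 2, and for Jun also without model 1 or model 2, with adjusted p of 0.0501 to 0.0963 by edgeR.

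In the group for acid secretion and matrix resorption, to which Atp6v0d2, Acp5 and Ctsk belong by function, 3 of 11 tested were higher and 3 were lower. Tcirg1, the a3 subunit of the same proton pump, was higher by 1.12 (edgeR adjusted p = 2.0e-04), with 89.9 to 94.5 CPM in normal and 183 to 220 in model. Car2, the carbonic anhydrase that supplies the protons and is also abundant in red cell precursors, fell by 5.81 (3.3e-04), from a mean of 1645 ± 154 CPM to 29.3 ± 20.2 (SD, n = 3). The 8 erythroid markers summed to 13425 to 17045 CPM in normal and 151 to 1611 in model, and their part in the fall of Car2 was not tested.

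**Figure D4:**
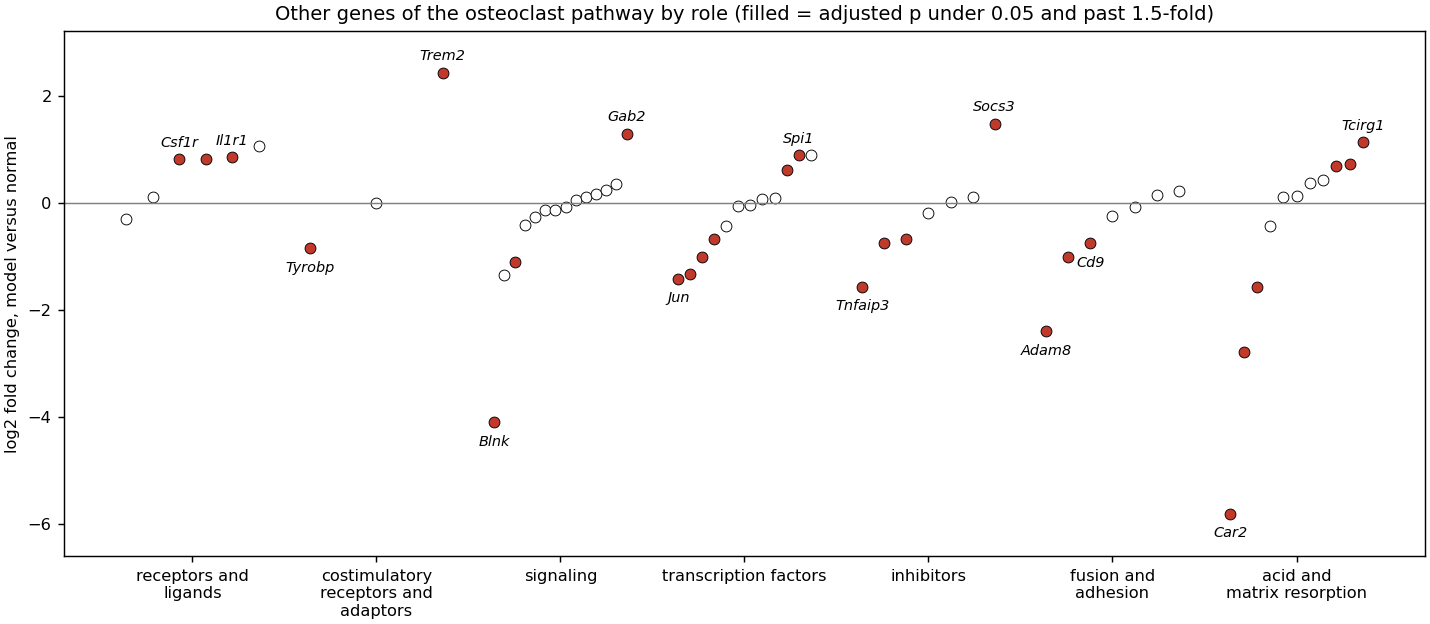
Log2 fold change of the 60 further pathway genes tested between model and normal, grouped by role along the horizontal axis and sorted within each role, with a point per gene, filled where the adjusted p was under 0.05 and the change past 1.5-fold. The highest and lowest called gene of each role is named, and the values run from -5.81 for Car2 to 2.43 for Trem2.

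RANKL itself, encoded by Tnfsf11, is made in marrow by stromal cells, osteoblasts and lymphocytes, and its decoy receptor osteoprotegerin by Tnfrsf11b. Tnfsf11 had 21, 20 and 8 reads in normal, 57, 24 and 37 in model, 36, 79 and 68 in QJSB and 17, 6 and 1 in leucogen. Model was not called against normal (1.05, edgeR adjusted p = 0.0912), QJSB was higher than normal by 1.63 (0.0261) and higher than leucogen by 2.43 (0.0301), and the libraries of QJSB did not overlap with those of normal or of leucogen. Both calls were lost with 1 library left out, against normal without normal 1, normal 2, normal 3, QJSB 2 or QJSB 3 (1.30 to 1.88, adjusted p 0.0503 to 0.0760) and against leucogen without QJSB 2, QJSB 3, leucogen 2 or leucogen 3 (1.98 to 2.30, 0.0768 to 0.101). With the replicate block the difference between QJSB and leucogen was 2.51 (adjusted p = 0.0712). The model libraries, at 1.70 to 3.29 CPM, likewise lay above normal at 0.55 to 1.52 and leucogen at 0.10 to 1.35 CPM. They overlapped with QJSB, at 1.93 to 4.57 CPM. Libraries that did not overlap were found for 58.1% of all genes between QJSB and normal, and for 48.8% between QJSB and leucogen. Tnfrsf11b had at most 6 reads in any library, so no ratio of ligand to decoy was computed.

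**Figure D5:**
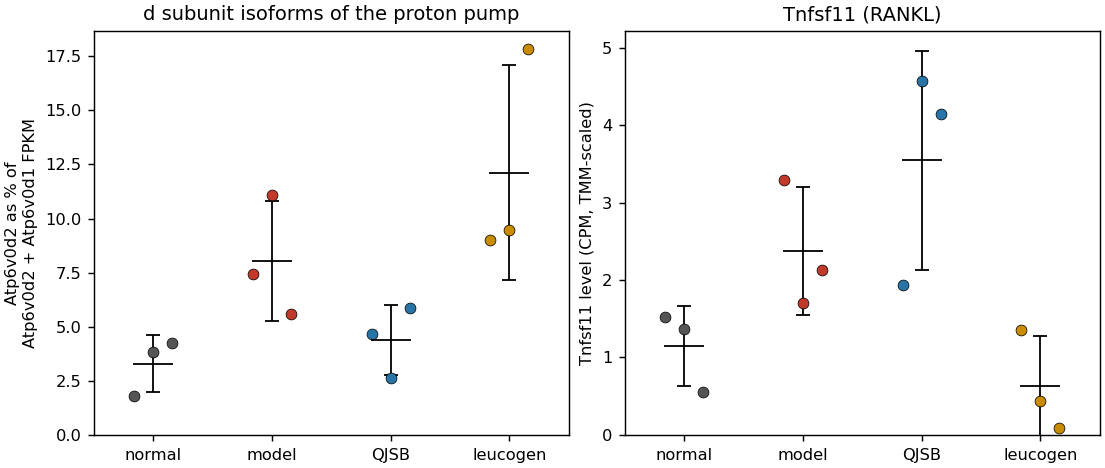
Left, FPKM of Atp6v0d2 as a percentage of the summed FPKM of Atp6v0d2 and Atp6v0d1 in each library, and right, level of Tnfsf11 in CPM, with a point per mouse, the group mean as a line and bars of 1 SD (n = 3). The d2 share averages 3.29% in normal and 12.1% in leucogen, and Tnfsf11 reads are fewest in leucogen, where the lower bar ends at the axis.

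Between QJSB and model 0 of 61 pathway genes tested were called, and 4, all higher in QJSB, passed an unadjusted p under 0.05 with a 1.5-fold change, as did 3.08% of all genes. Between leucogen and model 10 of 60 were higher and 2 were lower, where 23.1% of all genes were called. The highest were Mmp9, gelatinase B, at 2.77 (edgeR adjusted p = 0.0334), Adam8 at 2.15 (0.0107) and the cytokine gene Tnf at 1.40 (0.00821), and the lower ones were Fos, the partner of Jun in AP-1, at -2.13 (0.00177) and Csf1r at -0.98 (0.00434). The late neutrophil markers, a cell type that stores gelatinase B, summed to 48481 to 58166 CPM in leucogen and 4785 to 19763 in model, with 6 of 10 higher, and their part in these changes was not tested. Mmp9 lost its call without model 3 (2.82, adjusted p = 0.122) or any 1 leucogen library (2.66 to 2.83, 0.0738 to 0.0927), and Adam8 without model 3 (2.19, 0.0584).

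Compared with normal, QJSB had 13 of 61 pathway genes higher and 8 lower, and leucogen had 12 of 60 higher and 8 lower, beside 37.9% and 37.7% called over all genes. In QJSB the extremes besides Tnfsf11 were Trem2 at 2.11 (edgeR adjusted p = 0.00113) and Gab2 at 1.51 (2.5e-04), and at the other end Blnk at -5.94 (1.6e-04), Car2 at -5.47 (5.9e-04) and Tnfaip3 at -1.64 (1.6e-04). In leucogen they were Trem2 at 2.38 (4.4e-05), Jdp2, an AP-1 family member, at 1.21 (1.3e-04) and Tcirg1 at 1.13 (5.6e-06), with Car2 at -6.36 (0.00315), Blnk at -5.37 (7.4e-07) and the calcium-dependent kinase Camk4 at -2.39 (0.00461). Siglec15, listed with the costimulatory receptors and adaptors, had at most 2 reads in any library.

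Over the 12 libraries, the members did not follow one another closely on the log2 CPM scale. Pearson's r was 0.53 between Acp5 and Ctsk and 0.60 between Tnfrsf11a and Atp6v0d2, while Acp5 was at -0.74 with both Tnfrsf11a and Atp6v0d2, and Nfatc1 was between -0.32 and 0.08 with the other 4. Among 15310 genes, the pattern most like that of Acp5 was Spef1 (0.98), Shank1 (0.97) and Slc30a1 (0.96), that of Nfatc1 Maml1 (0.97), Hivep1 (0.94) and Slc9a3r1 (0.94), and that of Atp6v0d2 Rbm34 (0.92), Rnft1 (0.92) and Vapb (0.91). For Tnfrsf11a it was mt-Co3 (0.93), Cacna1d (0.92) and Wfdc17 (0.91), and for Ctsk Wdsub1 (0.88), Dmp1 (0.86) and Zfp651 (0.85). These values describe likeness only, since 3 libraries share each treatment and 9 share cyclophosphamide.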

How the data were processed

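The authors sequenced ribosome-depleted, strand-specific RNA of 12 marrows, cleaned the reads by Seqtk and aligned these with Hisat2 to GRCm38 (mm10 per the labels); the counting program is not given in the sources used here. They deposited, per gene and library, unnormalized counts and FPKM, the latter per transcript length and total fragments; 0 sample columns were unused. Column headings were read as groups by meaning and elimination, and no label gives the reading for 3 of the 4 headings, which was known from earlier work on these values.

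Counts were tested with edgeR 4.0.16 (TMM, filterByExpr, robust glmQLFit, glmQLFTest) in R 4.3.3, for 2 groups at a time, with Benjamini-Hochberg adjustment over all genes tested. A gene was called at an adjusted p under 0.05 and an absolute log2 fold change over 0.585. Low-count members were left untested and are given as reads. Scripts were tested on simulated data. The members and the pathway and marker lists were chosen with earlier results of these data known. All members were named, with the highest and lowest called gene of each pathway role in model versus normal, the 3 highest and 3 lowest called pathway genes elsewhere, and the 3 genes most like each of the members that had a mean of at least 10 counts, predicted genes with Gm or Rik symbols excepted.

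Alternatives were DESeq2 1.42.0, its size factors, library totals, other filters, all 12 libraries in 1 fit, a replicate block, limma 3.58.1 on log2(FPKM + 0.1) and log2(FPKM + 1), and each library left out. Replicates are separate mice. Same-numbered libraries correlated at 0.451, 0.135 and 0.102 between QJSB and model, and positively between QJSB and leucogen. The numbers were taken to pair only these groups, from the correlations alone. However, QJSB 2 with model 3 (0.168) and QJSB 3 with model 2 (0.182) were above the values of numbers 2 and 3. Unlike pairs with a number 1 were at -0.301 to -0.212. Between QJSB and model only number 1 thus stood out. Leucogen and model were at 0.125, -0.104 and -0.022 for the same numbers. A pairing of QJSB with both groups would also pair leucogen with model, which these values do not show.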

Additional observations from a re-analysis of the deposited data

Results flagged for a closer look

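Of the 9 genes 5 were tested between QJSB and leucogen, and none was called different. Among 60 pathway genes tested directly between these groups with edgeR, 8 were higher and 2 were lower in QJSB. Over all genes tested, 24.6% were called. The 3 with the largest rise and the 2 that were lower are described. Fos was higher in QJSB by 2.82 on the log2 scale (adjusted p = 0.00285), with 19.4 to 40.6 CPM against 2.97 to 4.92 in leucogen. Jun was higher by 1.71 (0.0101), with 7.30 to 18.8 CPM against 3.07 to 4.49, and not called without leucogen 3 (1.59, 0.0545). In model Fos was at 16.6 to 18.0 CPM and Jun at 4.82 to 7.90. In normal both were widely spread, with Fos at 3.17 to 36.1 CPM and Jun at 8.41 to 26.6. Tnfsf11 was higher in QJSB by 2.43 (0.0301), and was not called with the replicate block (2.51, 0.0712) or without QJSB 2, QJSB 3, leucogen 2 or leucogen 3 (1.98 to 2.30, 0.0768 to 0.101). The model libraries, at 1.70 to 3.29 CPM of Tnfsf11, also lay above those of leucogen. Tyrobp, at -0.86 (0.0210), had 114 to 209 CPM in QJSB and 283 to 322 in leucogen, and was not called without leucogen 1 (-0.81, 0.0747) or leucogen 3 (-0.85, 0.0701). Tnf, at -0.85 (0.0417), had 6.06 to 12.3 CPM in QJSB and 14.4 to 17.8 in leucogen, and lost its call without QJSB 3 (-0.82, 0.102) or any 1 leucogen library (-0.92 to -0.76, 0.0766 to 0.143).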

How the results depend on the processing

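The calls of Acp5 in model and leucogen against normal, and of Atp6v0d2 in the same comparisons, held under every alternative run. Members called between QJSB and leucogen numbered 1 with DESeq2, with the replicate block and at the study's cutoff of an unadjusted P, an alternative entered after the data had been seen, against 0. At that cutoff 4 pathway genes were called between QJSB and model, against 0. On log2(FPKM + 0.1) without a filter, 1 member was called between leucogen and model (0 before) and 2 in QJSB against normal (4 before), and Ctsk turned to 0.12 between QJSB and leucogen, also with the filter, and to 0.0121 on log2(FPKM + 1). With 1 library left out, 1 to 3 members were called in QJSB against normal (4 with all), with 1 without normal 1 or normal 2 and 2 without QJSB 2 or QJSB 3, and 2 to 14 pathway genes between QJSB and leucogen (10 with all), the fewest without leucogen 3.

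Uncalled differences that changed sign with 1 library left out ranged, for Ctsk, from -0.57 to 0.27 (model against normal) and from -0.90 to 1.02 (QJSB against leucogen), for Tnfrsf11a from -0.36 to 0.21 (QJSB against model), from -0.42 to 0.17 (leucogen against model) and from -0.0288 to 0.26 (QJSB against leucogen), for Acp5 from -0.36 to 0.71 (QJSB against model) and from -0.62 to 0.0006 (leucogen against model), and for Nfatc1 from -0.069 to 0.015 (leucogen against normal). The causes were not tested. Against normal, Tnfrsf11a lost its call on each FPKM scale in model and leucogen, on log2(FPKM + 1) in QJSB (0.39, below 1.5-fold), with at least 10 counts in every library in model (adjusted p = 0.0514) and with all 12 libraries in leucogen (0.0732), and Ctsk in QJSB lost its call with all 12 libraries (-1.37, 0.124).

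Between groups whose numbers were not taken to pair, the replicate block ended the call of Tnfrsf11a against normal in model (0.86, adjusted p = 0.0554), QJSB (0.81, 0.0501) and leucogen (0.71, 0.0509), with edgeR. It changed no other member's call except that of Atp6v0d2 between the drugs. Scaling by library totals moved the median of all genes to 0.14 between model and normal and to -0.22 between leucogen and model, from 0.02 and -0.05, and Ctsk in QJSB against normal was then not called (adjusted p = 0.0656). At 8 reads or fewer per library, Oscar, Calcr, Dcstamp and Ocstamp were called in no count test.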
